A study of Mus musculus with 6 samples.

Results

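The intracellular lipid-binding proteins are small soluble carriers that hold fatty acids, bile acids or retinoids inside cells. The genes Fabp1 to Fabp6, Crabp1, Crabp2 and Rbp2 were taken by symbol from the deposited count table, which gave 9 of its 21534 rows. Of these 9, 5 had enough reads to be tested (Fabp1, Fabp2, Fabp5, Fabp6 and Rbp2), among 13700 tested genes in all. The other 4, Fabp3, Fabp4, Crabp1 and Crabp2, lay near or at 0 in every library and are given as reads.

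The samples were 6 RNA-seq libraries of polyadenylated RNA from organoids of the ileum, grown as epithelial cultures from crypts of wild-type C57Bl/6 mice. All 6 had first spent 96 hours with 10 µM CHIR99021, which blocks the kinase GSK3, raises Wnt signalling and enriches stem cells. The vehicle group (3 libraries) then received DMSO and the retinoic acid group (3 libraries) 10 µM all-trans retinoic acid, each for 24 hours. Every vehicle library therefore had the same prior exposure to CHIR99021 as the treated ones, and no culture without CHIR99021 enters any comparison. Whether Wnt signalling was still equal in both groups after the 24 hours was not tested. The labels name neither animals nor separate cultures behind the libraries of a group, so each p-value weighs a difference against the spread of these libraries alone, which may be technical.

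In the small intestine, fatty acids and retinol enter absorptive cells as free lipids and are bound at once by such carriers, which deliver them to enzymes of esterification and oxidation or to nuclear receptors. Fabp1 and Fabp2 are the fatty acid carriers of enterocytes, Fabp6 is the bile acid carrier of the ileum and Rbp2 binds retinol and retinaldehyde for esterification into chylomicrons. Crabp1, Crabp2 and Fabp5 are known as carriers of retinoic acid itself, of which Crabp2 hands it to retinoic acid receptors and Fabp5 has been described as serving PPARδ. Fabp3 and Fabp4 are best known from muscle and from fat cells and macrophages.

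The 9 genes shared a build that the choice by symbol did not use. In the GENCODE M21 annotation each had 4 coding exons, with a total coding length, stop codon left out, between 381 bases (Fabp1) and 414 bases (Crabp2). The second coding exon was 173 bases in Fabp1, Fabp2, Fabp3, Fabp4 and Fabp5, 176 bases in Fabp6 and 179 bases in Crabp1, Crabp2 and Rbp2. Over the 36 pairs of members, aligned coding bases were identical at between 54.9% and 70.8%, the highest being Crabp1 with Crabp2. The longest run of identical coding bases shared by any pair was 14 bases, so no member was a near-identical copy of another within its coding sequence. Untranslated parts and pseudogenes were not compared, and how reads with several matching places were counted is not given.

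The genes lie on 5 chromosomes, and the coordinates are those of the deposited table (mm10). Fabp6 is at chr11:43596049-43601540 on the minus strand, Fabp1 at chr6:71199827-71205023, Fabp2 at chr3:122895072-122899506 and Rbp2 at chr9:98490537-98509771, the last 3 on the plus strand. Fabp5 (chr3:10012548-10016607) and Fabp4 (chr3:10204347-10208576) lie with the family genes Pmp2 and Fabp12 within 289 kb of chromosome 3. Fabp3 (chr4:130308595-130315463) overlaps the rows of Zcchc17 and Gm10570, and whether reads were counted by strand is not given, so its reads are uncertain.

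The stretches before the start sites of the 3 genes that rose with retinoic acid and of Rbp2, the retinol carrier, are shown because these 4 held most of the family's reads. They are the 250 bases before each RefSeq start (GRCm38.p6), written in the direction of transcription, 5′ to 3′. Capitals mark the letters AGGTCA and TATAAA on either strand and the 13-letter matches named after them. AGGTCA is the consensus half-site of the nuclear receptors that pair with RXR, the shared partner of the retinoic acid receptors, PPARs and the bile acid receptor FXR.
Fabp6, chr11:43601563-43601812, minus strand: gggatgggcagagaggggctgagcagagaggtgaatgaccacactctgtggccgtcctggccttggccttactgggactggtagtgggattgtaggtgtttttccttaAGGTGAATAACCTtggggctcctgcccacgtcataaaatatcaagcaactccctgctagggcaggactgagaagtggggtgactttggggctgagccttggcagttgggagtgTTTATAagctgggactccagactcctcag
Fabp1, chr6:71199629-71199878, plus strand: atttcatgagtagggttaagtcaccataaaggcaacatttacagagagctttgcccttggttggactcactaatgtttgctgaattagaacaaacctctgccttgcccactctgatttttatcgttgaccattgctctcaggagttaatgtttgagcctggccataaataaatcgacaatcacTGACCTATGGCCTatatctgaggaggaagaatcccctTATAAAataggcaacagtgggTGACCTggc
Fabp2, chr3:122894822-122895071, plus strand: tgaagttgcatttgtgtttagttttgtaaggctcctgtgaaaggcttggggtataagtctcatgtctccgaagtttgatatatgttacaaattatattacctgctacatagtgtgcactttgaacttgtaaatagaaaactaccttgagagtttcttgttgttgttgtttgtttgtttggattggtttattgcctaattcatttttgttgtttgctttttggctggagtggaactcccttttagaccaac
Rbp2, chr9:98490287-98490536, plus strand: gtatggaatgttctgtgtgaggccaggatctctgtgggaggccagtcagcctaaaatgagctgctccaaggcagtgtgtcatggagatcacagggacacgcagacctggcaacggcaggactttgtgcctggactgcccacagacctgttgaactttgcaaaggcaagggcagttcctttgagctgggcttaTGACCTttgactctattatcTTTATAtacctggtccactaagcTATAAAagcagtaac

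Both strands of the 300-base windows (250 before and 50 after the start) were searched for pairs of the half-site AGGTCA or its variants AGTTCA or GGGTCA or GGTTCA, in direct repeats with spacers of 1, 2 or 5 bases and in inverted repeats with a spacer of 1. None of the 6 members with a window (these 4, Fabp3 and Crabp1) held such a pair, and among all 32851 windows the shares were 0.222%, 0.268%, 0.0974% and 0.0365%. A single AGGTCA stood on the minus strand at bases −67 to −62 and −9 to −4 of Fabp1 and at −58 to −53 of Rbp2, and 16.3% of all windows held one. Fabp6 and Fabp2 had none. TATAAA was found in Fabp1 (−30 to −25), Fabp6 (−29 to −24, minus strand) and Rbp2 (−38 to −33, minus strand, and −15 to −10), against 13.6% of windows, and not in Fabp2. The short motif CAAAG was present in 5 of the 6 windows, all but that of Crabp1, and in 53.9% of all windows. TTTATGG occurred at 2 places in Fabp1 (2.75% of windows) and AGATAA at 1 place in Rbp2 (11.2% of windows).

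Another 2 strings were searched after the sequences had been read. AGGTGAATAACCT, an imperfect inverted repeat with a spacer of 1 base, lies at −142 to −130 of Fabp6, and repeats of this layout are the kind that FXR is known to bind. AGGCCATAGGTCA, an imperfect direct repeat with a spacer of 1, lies at −67 to −55 of Fabp1 on the minus strand and includes 1 of its AGGTCA matches. Each exact string was found in 1 of the 32851 windows, the member's own. Imperfect repeats of these layouts were not searched for as a class, so that count does not say how common they are. The Fabp6 stretch holds another imperfect inverted repeat with a spacer of 1 further from the start, aggtgaatgacca. An imperfect direct repeat with a spacer of 1 also stands in the stretch of Rbp2, which did not rise. It reads TGACCTttgactc as printed and includes the AGGTCA match of Rbp2 on the minus strand. A match describes letters only, and none of these windows was measured for binding here.

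Total reads over genes ranged from 14919144 to 21833846 per library, so 1 read was worth 0.0469 to 0.0678 CPM, meaning reads per 1000000 after TMM scaling. Treatments were apart on the first principal component (44.8% of the variance), and library 3 of either group stood away from its partners on the second (20%), so member values are also given without those libraries where that matters. The 8 epithelial markers used as a check summed to between 7489 and 7843 CPM in every library. Markers of other cells were partly present. The 7 leukocyte markers summed to 25 to 29.4 CPM in vehicle and 28.9 to 33.8 CPM in treated libraries, mostly from Csf1r (330 to 411 reads), while Ptprc had at most 2 reads. The 8 fibroblast and muscle markers summed to 5.59 to 6.42 and 4.31 to 4.75 CPM, mostly from Pdgfrb (28 to 82 reads). The 5 endothelial markers summed to 2.72 to 5.46 and 2.3 to 3.8 CPM, with Vwf at 17 to 40 and Cdh5 at most 2 reads. The 5 adipocyte markers summed to 14.5 to 19.4 and 25.1 to 28.7 CPM, nearly all from Cidec, with at most 1 read of Adipoq, Lep or Retn in a library. The stem cell marker Lgr5 was present in all libraries and was lower with retinoic acid, as were Olfm4 and Smoc2. That is 3 of 5 stem cell markers, beside 4.09% of all tested genes. The stem cell list summed to 599 to 665 CPM in vehicle and 427 to 451 CPM in treated libraries. Among the markers of other cells Cidec, a lipid droplet gene, and Cd68, a lysosomal gene of macrophages, were higher (log2 fold changes of 0.63 and 0.75), Cd68 not so without vehicle library 1 or retinoic acid library 1 or 2. The part of any marker list in the carriers' values was not tested.

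Of the 9 carriers 3 rose with retinoic acid, Fabp6, Fabp1 and Fabp2, and none fell. The threshold was 0.05 on the p of edgeR's quasi-likelihood test after Benjamini-Hochberg adjustment, by which 5.37% of all tested genes were higher, 4.09% lower and 9.46% either. The same 3 were the tested carriers whose groups did not overlap, beside 12.9% of tested genes apart in the higher, 12.6% in the lower and 25.5% in either direction. The 3 that rose are the gene of the bile acid carrier and those of both enterocyte fatty acid carriers. Neither the retinol carrier gene Rbp2 nor Fabp5 passed the threshold. At an unadjusted p under 0.05 in edgeR 1 member, Rbp2, was lower, and DESeq2 and limma-voom called 0 members lower after adjustment. Of the 13 alternative analyses 3 called Rbp2 lower, among them the one with no filter on low counts (adjusted p = 0.0322). The comparison covers RNA of whole cultures, so more cells that express a carrier and more RNA per cell cannot be told apart.

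**Figure D1:**
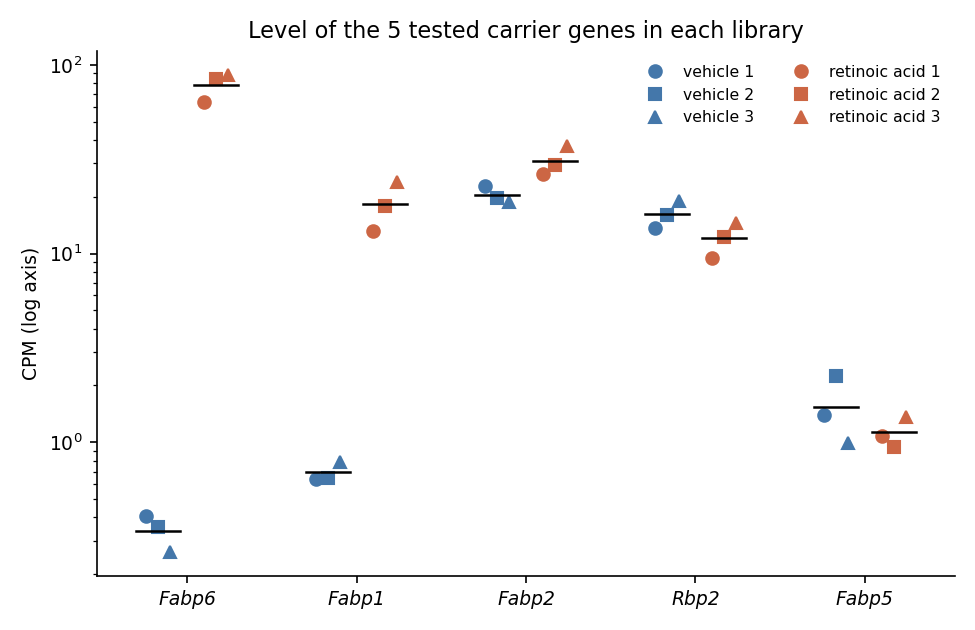
Level of the 5 tested carrier genes in each library, in counts per 1000000 of the scaled library size on a log axis. Blue marks are vehicle, orange marks retinoic acid, the mark's shape gives the library number and the black lines are group means. The groups are apart for Fabp6, Fabp1 and Fabp2 and overlap for Rbp2 and Fabp5.

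Fabp6, the ileal bile acid carrier, had 7, 6 and 4 reads in vehicle libraries 1, 2 and 3 and 1353, 1235 and 1756 reads in retinoic acid libraries 1, 2 and 3. This was 0.405, 0.355 and 0.263 CPM against 63.4, 83.7 and 88.7 CPM. Every treated library lay far above every vehicle library, and the treated ones differed from each other by at most 1.4-fold. The log2 fold change was 7.80 (SE 0.21, 95% interval 7.35 to 8.26, adjusted p = 9.93e-12), the second largest increase among the 13700 tested genes. Because the vehicle side rests on 17 reads, the size of the fold is uncertain: counting error alone gave a ratio of summed reads of 226 with an exact 95% interval from 141 to 388. Each vehicle library had fewer than the 10 reads that the low-count filter looks for, so the gene entered the test through its treated libraries.

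Fabp1, the liver-type carrier that enterocytes also make, had 11, 11 and 12 reads with vehicle and 282, 263 and 471 reads with retinoic acid. Its levels were 0.636, 0.651 and 0.79 CPM against 13.2, 17.8 and 23.8 CPM. The vehicle libraries were close to each other, whereas the treated ones spread 1.8-fold, with library 3 highest. The log2 fold change was 4.71 (SE 0.27, 95% interval 4.13 to 5.29, adjusted p = 5.24e-08). The ratio of summed reads was 26.4, with an exact counting interval of 18.8 to 38.4. Of the 709 tested genes with a vehicle mean under 1 CPM, 3 reached a mean of at least 10 CPM with retinoic acid, namely Fabp6, Fabp1 and the retinoic acid hydroxylase gene Cyp26b1. Those limits of 1 and 10 CPM were chosen after the values were seen.

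Fabp2, the intestinal-type fatty acid carrier, was already well expressed before treatment. It had 395, 332 and 285 reads with vehicle (22.8, 19.7 and 18.8 CPM) and 564, 437 and 732 reads with retinoic acid (26.4, 29.6 and 37 CPM). The groups did not overlap, but the highest vehicle library and the lowest treated one, both numbered 1, were close. The fold was 1.52 (log2 0.60, SE 0.12, 95% interval 1.26-fold to 1.83-fold, adjusted p = 0.00649), and Fabp2 ranked 381 by fold increase. Leaving out retinoic acid library 3 gave a log2 fold change of 0.45, and leaving out library 3 of both groups gave 0.39, with an adjusted p of 0.0289.

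Rbp2, the retinol carrier of enterocytes, did not share this direction. It had 235, 270 and 287 reads with vehicle (13.6, 16 and 18.9 CPM) and 201, 182 and 289 with retinoic acid (9.42, 12.3 and 14.6 CPM). The treated libraries reached into the vehicle range through library 3. Its fold was 0.75 (log2 −0.41, SE 0.16) and it was not called (adjusted p = 0.147), although the interval from 0.589-fold to 0.956-fold, not adjusted for the number of genes, lies below 1. Without retinoic acid library 3 the log2 value was −0.58 and Rbp2 was called lower (adjusted p = 0.0158). That was the only call in the 6 fits that left out 1 library. Without retinoic acid library 1 the log2 value was −0.25 (adjusted p = 0.495). With library 3 of both groups left out it was −0.46 and Rbp2 was not called (adjusted p = 0.0643).

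Fabp5, the epidermal-type carrier that binds fatty acids and retinoic acid, was scarce, with 24, 38 and 15 reads in the vehicle libraries and 23, 14 and 27 in the treated ones. Levels of 1.39, 2.25 and 0.987 CPM overlapped those of 1.08, 0.949 and 1.36 CPM. Its fold of 0.736 was not called (adjusted p = 0.559), and the interval from 0.426-fold to 1.27-fold does not say whether its level differed. The vehicle libraries alone spread 2.28-fold, and without vehicle library 2 the log2 fold change moved from −0.44 to −0.07.

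The retinoic acid carriers Crabp1 and Crabp2 were close to undetected. Crabp1 had 0, 2 and 1 reads with vehicle and 0 reads in all 3 treated libraries, and 0 reads there allow up to 0.0537 CPM over the group. Crabp2 had 0, 0 and 1 reads with vehicle and 0, 0 and 1 with retinoic acid. Fabp5 thus had 77 reads against 1 of Crabp2 over the vehicle libraries and 64 against 1 over the treated ones, and the ratio of Crabp2 to Fabp5 in a library could not be formed where Crabp2 had none. Fabp4, the adipocyte carrier, had 1 read in all, in retinoic acid library 3. Fabp3, the muscle-type carrier, had 2, 3 and 4 reads with vehicle and 2, 0 and 2 with retinoic acid, a ratio of 0.393 with a counting interval from 0.0884 to 1.41. None of these 4 was called when the filter was dropped (adjusted p of 0.517 or more in edgeR). A fall or a small change in them was not detectable at this depth, where 3 reads correspond to 0.141 to 0.203 CPM in a library.

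**Figure D2:**
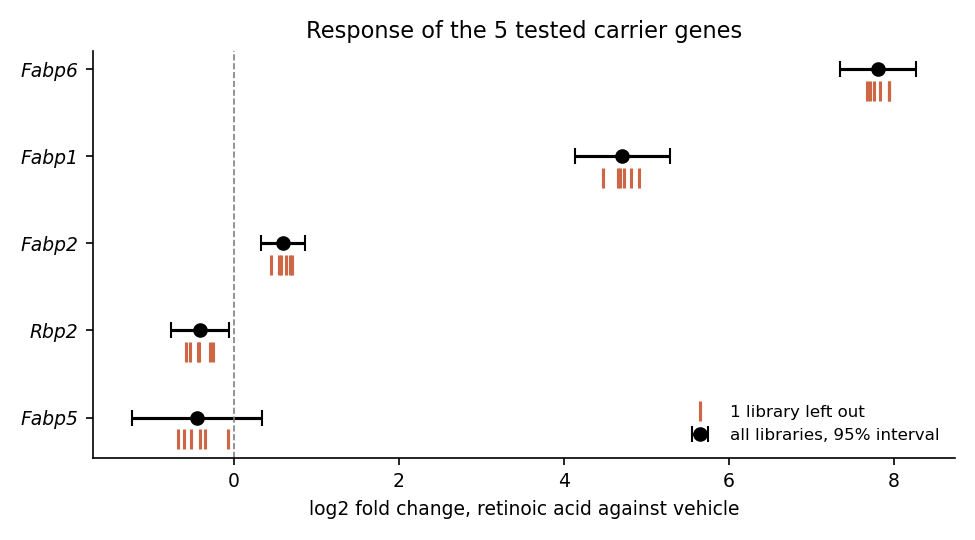
Log2 fold change of the 5 tested carrier genes, retinoic acid against vehicle. Black points are estimates from all 6 libraries with 95% intervals and orange ticks are the 6 estimates with 1 library left out. The intervals of Fabp6, Fabp1 and Fabp2 lie above 0, and that of Rbp2 lies just below 0 although its adjusted p is 0.147.

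The authors' deposited table gives the same directions for the 5 tested members. In the authors' deposited table the log2 fold change is 7.84 for Fabp6, 4.73 for Fabp1 and 0.61 for Fabp2, whose FDR there is 7.99e-04. The FDR in the authors' deposited table is 0.271 for Rbp2 and 0.967 for Fabp5. The shrunken log2 fold changes in the authors' deposited table are far smaller for the genes with few vehicle reads, at 3.90 for Fabp6 and 1.84 for Fabp1, and 0.45 for Fabp2.

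Within the family the order of levels changed. Per kilobase of coding sequence, Fabp2 was highest with vehicle at 51.6 ± 5.4 CPM per kb, ahead of Rbp2 at 40.2 ± 6.61 (SD, n = 3 in each group). Fabp5 at 3.81 ± 1.59, Fabp1 at 1.82 ± 0.222 and Fabp6 at 0.888 ± 0.187 CPM per kb followed, and the library ranges of these 5 neighbours did not overlap. With retinoic acid Fabp6 led at 205 ± 34.9 CPM per kb, then came Fabp2 at 78.3 ± 13.7, Fabp1 at 48 ± 13.9, Rbp2 at 30.2 ± 6.46 and Fabp5 at 2.79 ± 0.525. The ranges of Fabp1 and Rbp2 overlapped there and those of the other neighbours among these 5 did not. Fabp6 thus went from the lowest of the 5 tested carriers to the highest. It was among these 5 through its treated libraries, and the untested Fabp3, Fabp4, Crabp1 and Crabp2 lay lower in both groups.

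Set against the 12517 tested genes with a coding length, mean level per kb placed Fabp6 above 5.82% of genes with vehicle and above 92.7% with retinoic acid. Fabp1 went from above 10.8% to above 68.8%, and Fabp2 from above 71% to above 79.5%. Rbp2 was above 64.8% and then 57.4%, and Fabp5 above 17.7% and then 15.3%. Fabp6 was among the tested genes through its treated libraries. Genes that were as low in both groups are not in this set, so its vehicle position depends on the filter. These positions describe group means and carry no test.

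The 9 genes together took 674, 662 and 609 reads in the vehicle libraries and 2425, 2131 and 3279 in the treated ones. Their summed level was 39.4 ± 0.59 CPM in vehicle and 141 ± 26.2 CPM in treated libraries (SD, n = 3), and no treated library was near the vehicle range. Without Fabp6 the other 8 summed to 39.1 ± 0.661 and 62.7 ± 13.5 CPM. Fabp6 made up 0.867% ± 0.194 of the family's reads with vehicle and 55.8% ± 2.2 with retinoic acid. Fabp2 and Rbp2 together were most of the vehicle reads, at 51.9% ± 6.08 and 40.9% ± 6.13, against 22% ± 1.4 and 8.55% ± 0.263 with retinoic acid. The share of Fabp1 was 1.75% ± 0.187 and then 12.8% ± 1.42. A share depends on the reads of the other genes, so the lower share of Fabp2 stands beside a higher level. Sums and shares are descriptions of these libraries, since the members were chosen with results known.

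**Figure D3:**
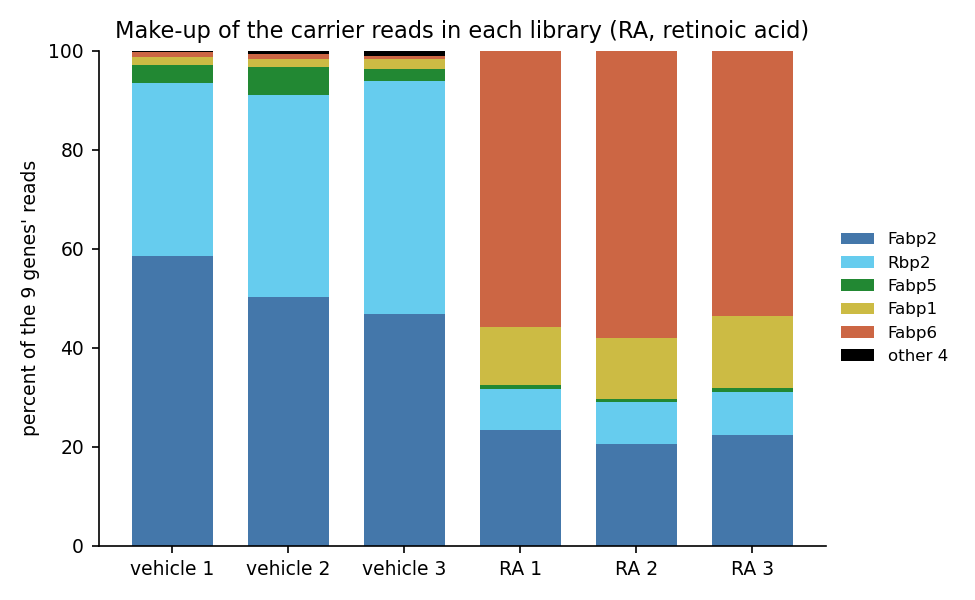
Share of each gene in the reads of the 9 carrier genes, in percent, for the 3 vehicle and the 3 retinoic acid (RA) libraries. Fabp2 and Rbp2 fill most of each vehicle bar, and Fabp6 fills between 53.6% and 58% of each retinoic acid bar.

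Libraries of the treated group differed in a shared way. Retinoic acid library 1 had the lowest and library 3 the highest level of Fabp6, Fabp1, Fabp2 and Rbp2. The summed level of 12 enterocyte markers moved with this, at 976, 1230 and 2220 CPM in retinoic acid libraries 1, 2 and 3 and 1806, 1966 and 2674 CPM in vehicle libraries 1, 2 and 3. Of these 12 markers 2 were lower with retinoic acid, Alpi, the intestinal alkaline phosphatase, and Mep1a, a brush border protease, with a median log2 fold change of −0.38 beside −0.00795 over all tested genes. By the same test 4.09% of all tested genes were lower. Without retinoic acid library 3, 8 of the 12 markers were lower, and without vehicle library 2, 1 was higher. Fabp1 and Fabp2 thus rose in libraries whose enterocyte marker sum spanned a lower though overlapping range.

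**Figure D4:**
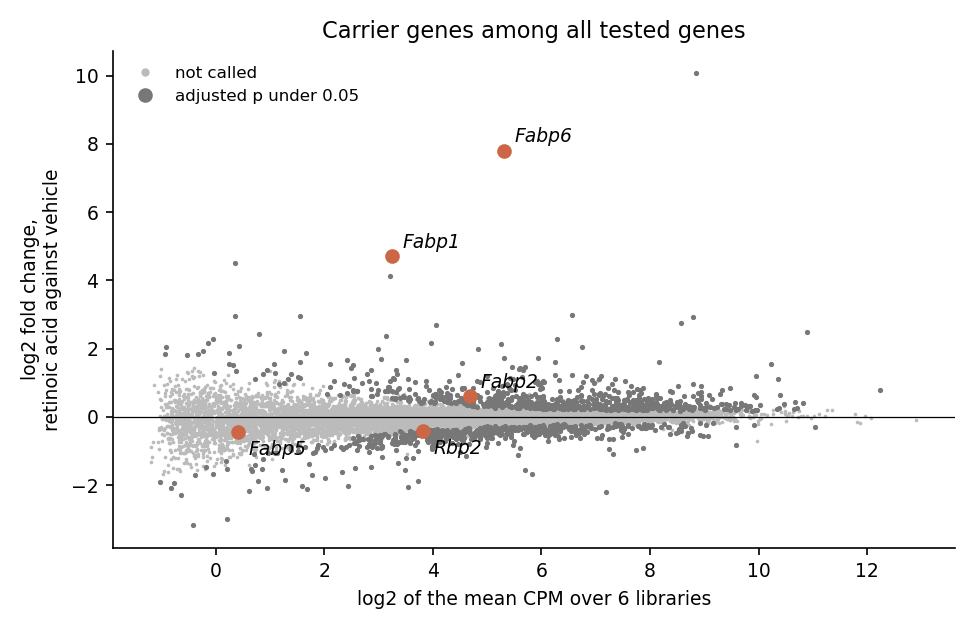
Log2 fold change with retinoic acid against the log2 of the mean CPM over 6 libraries for all 13700 tested genes. Dark grey points passed an adjusted p of 0.05 and orange points are the 5 tested carriers. Fabp6 and Fabp1 lie above all but 1 and 2 genes, and Fabp5 and Rbp2 lie within the cloud of genes that were not called.

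For each carrier that rose, the 3 genes with the nearest profile of centred log2 CPM over the 6 libraries were sought. The search covered the 11829 tested genes that averaged 1 CPM or more, without the members and genes that have only a model or clone name. For Fabp6 they were Cyp26b1 (Euclidean distance 3.45), Slc51b, a subunit of the basolateral bile acid exporter (4.43), and Pdk4, a kinase that restrains glucose oxidation (4.76). Those distances are large because few genes changed as much. For Fabp1 they were Pdk4 (1.27), Slc51b (1.48) and the flavin monooxygenase gene Fmo5 (1.91). For Fabp2 they were much closer, namely Dkk3, a secreted protein of the dickkopf family (0.16), the retinol dehydrogenase family gene Rdh9 (0.26) and Hsdl2 (0.27). The distance depends mostly on the size of the response and describes these 6 libraries.

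The tested genes beside the 3 carriers that rose were not called, and 4933415A04Rik and Smyd1 were not tested. Around Fabp6 the nearest tested gene, Pwwp2a, had a log2 fold change of −0.03, and the other neighbour, 4933415A04Rik, had 27 reads over the vehicle and 33 over the treated libraries. Around Fabp1 they were Thnsl2 (−0.02) and Smyd1, with 14 and 8 reads. Around Fabp2 they were Pde5a (−0.02) and 1810037I17Rik (0.15). Pag1, a gene 179 kb before Fabp5, was the one called gene directly next to a member (log2 fold change 1.02, adjusted p = 6.10e-07).

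Of the other family genes described, Pmp2, Fabp12 and Rbp7 had at most 5 reads in any library and were not tested. Fabp7, Fabp9, Fabp5l2 and Rbp5 were not analysed here.

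Of 6 tested genes that transport bile acids or answer to them beside Fabp6, 5 were higher and 1 lower. Among all tested genes 5.37% were higher and 4.09% lower. The median log2 fold change of the 6 was 1.53, and the counts of 5 and 1 held with any 1 library left out. Slc51a and Slc51b, the basolateral exporter, and Fgf15, the ileal hormone that restrains hepatic bile acid synthesis, had log2 fold changes of 2.69, 4.13 and 2.50, and the exporter genes Abcc2 and Abcc3 had 0.56 and 0.54. Slc10a2, the apical importer, fell by 0.41 on the log2 scale (SE 0.09, adjusted p = 0.00849), so the import gene and the carrier gene moved in opposite directions. Nr0b2, a repressor that FXR induces, had 0 reads in 5 libraries and 5 reads in retinoic acid library 3.

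Of 14 tested genes that bring fatty acids in and activate them 1 was higher and 1 lower, beside 5.37% and 4.09% of all tested genes. The median log2 fold change of the 14 was 0.04. The one that rose was Acsl3, an acyl-CoA synthetase of lipid droplets, at 1.87-fold (140 ± 2.53 to 262 ± 6.23 CPM, adjusted p = 1.27e-07). The one that fell was Cav1, the caveolin gene (log2 fold change −2.04, SE 0.28). The uptake proteins' genes Slc27a1, Slc27a2, Slc27a3 and Slc27a4 were not called, and Cd36, the scavenger receptor for fatty acids, had at most 6 reads in any library. Without retinoic acid library 3, 2 members were higher.

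Of 16 tested genes of triglyceride and retinyl ester formation and storage 2 were higher and 1 lower, beside 5.37% and 4.09% of tested genes. The median log2 fold change of the 16 was 0.13. Mttp, which loads lipid onto apolipoprotein B, rose 1.44-fold and the retinaldehyde reductase gene Dhrs3 rose 4.39-fold. Lrat, the enzyme that esterifies the retinol held by Rbp2, fell by 2.16 on the log2 scale (SE 0.60, adjusted p = 0.0353), with 33, 77 and 17 reads with vehicle and 24, 5 and 3 with retinoic acid. Its groups overlapped. Leaving out vehicle library 1, vehicle library 2 or retinoic acid library 2 ended the call (adjusted p of 0.0651, 0.235 and 0.114). Without vehicle library 2 its log2 fold change was −1.43, and without retinoic acid library 1 it was −3.40. The esterifying genes Mogat2, Dgat1 and Dgat2 had log2 fold changes of 0.20, 0.01 and 0.05 and were not called. Without retinoic acid library 1, 3 members were higher.

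Of 11 tested nuclear receptors that respond to ligands of these carriers or drive their genes, 4 were higher and 1 lower, with a median log2 fold change of 0.23. Ppara, the receptor of fatty acids that is known to drive Fabp1, rose 2.38-fold from 4.06 ± 0.233 to 9.67 ± 0.743 CPM (SD, n = 3, adjusted p = 0.000139). Rarg, Hnf4a and Rara rose 1.44-fold, 1.18-fold and 1.19-fold. Hnf4a was not called when library 1 of the vehicle group (adjusted p = 0.0626) or of the treated group (0.0511) was left out. Rara was not called when library 1 or 2 of the vehicle group (0.135 and 0.0959) or library 1 or 2 of the treated group (0.147 and 0.109) was left out. Hnf4g was the 1 lower member (log2 fold change −0.23, adjusted p = 0.0492) and kept its call in 2 of the 6 fits that left out 1 library (adjusted p up to 0.197). With all libraries its adjusted p was 0.0514 with DESeq2 size factors, 0.0615 with no filter, 0.0563 in DESeq2 and 0.0532 in limma-voom, so it was not called there either. Nr1h4, which encodes FXR, was not called at 44.3 ± 3.82 and 53.3 ± 3.06 CPM (adjusted p = 0.0619), and was called higher without vehicle library 2 (0.0393) or retinoic acid library 3 (0.023). Ppard, the partner described for Fabp5, was not called (log2 fold change −0.19, adjusted p = 0.0786) but was called lower without retinoic acid library 3 (0.0162). The higher members numbered 2 when library 1 of either group was left out. The lower ones numbered 2 without retinoic acid library 3, and 0 when library 2 of either group or library 1 of the treated group was left out.

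**Figure D5:**
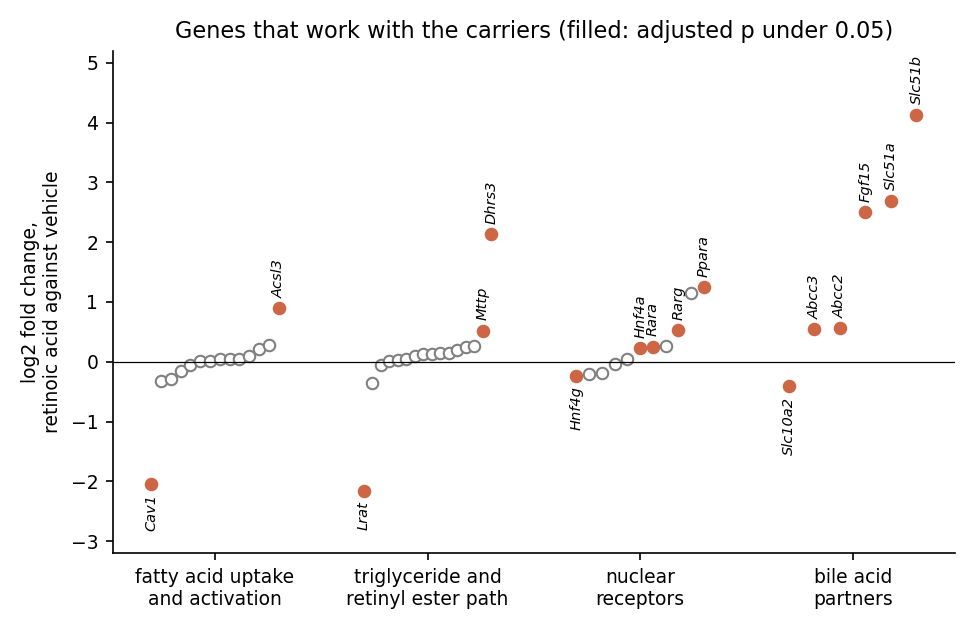
Log2 fold change with retinoic acid of tested genes in 4 lists of genes that work with the carriers, 1 point per gene. Filled points have an adjusted p under 0.05 and open points do not. Bile acid partners reach 4.13, while most fatty acid and ester pathway genes lie near 0.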

How the data were processed

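Gene-level read counts of 6 libraries were used as the authors deposited them, in 1 table. The same table holds the authors' own p-value, FDR and log2 fold changes (plain and shrunken), per the file headers. The build mm10 is named in the submitters' processing notes, with aligner, annotation and strand setting not given in the sources used here. Sample titles gave group and replicate number, and each column was matched to 1 title by its name. Of the 21534 rows 21102 had a gene ID in the reference's table of names.

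The tests used edgeR 4.0.16 under R 4.3.3: filterByExpr at its defaults (13700 rows, at least 99.89% of each library's reads), TMM factors of 0.978 to 1.02, and a quasi-likelihood fit with treatment as its only term. The tests are two-sided, with Benjamini-Hochberg adjustment over all tested rows. The standard error is the log2 fold change divided by the square root of F, taken as its size, and may be too small for large changes from few reads. Profiles used log2 CPM with a prior count of 2. The biological coefficient of variation was 7.81%. Chi-square statistics between libraries of a group were 4.09 to 11.1 per row, so none was counted as a repeat of another. Counting intervals are exact (Clopper-Pearson, 95%) and, like the limit of 3 reads set for a count of 0, cover counting error only. Coding lengths came from GENCODE M21, start-site windows from RefSeq (GRCm38.p6).

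All 9 members are named, with at most 4 called genes of each of 5 companion lists by smallest p, the 3 nearest profiles of each member called, and the nearest genes on the chromosome. A few other genes, called or not, are named after their values were seen. The members and lists were chosen with earlier results of these data known, so none of them is independent support. In simulated counts for this comparison (13574 genes), 73% of 100 genes changed 1.5-fold and 94% of 100 changed 2-fold were called, 6.7% of calls were unchanged genes and 0 had the wrong sign. Alternatives were DESeq2 size factors, no filter, a stricter filter (10 counts in each library of 1 group), DESeq2 1.42.0, limma-voom (limma 3.58.1), a replicate block, each library left out in turn and, added after seeing the data, library 3 of both groups left out. 1 further family gene is not reported here.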

Additional observations from a re-analysis of the deposited data

How the results depend on the processing

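Fabp6, Fabp1 and Fabp2 stayed called higher in all 13 alternatives, with log2 fold changes of 7.56 to 7.94, 4.47 to 4.91 and 0.39 to 0.71, and Fabp5 was called in none. The number of members that fell was 0, but 1 (Rbp2) with no filter on low counts (adjusted p = 0.0322), with the replicate block (0.0131) and without retinoic acid library 3 (0.0158). With 1 library left out the lower members numbered 0 to 1, all genes higher 443 to 978 and lower 289 to 787 (736 and 560 with all libraries), and the genes of the companion lists lower 2 to 5 (4 with all libraries). With the replicate number as a block 1224 genes were higher and 1052 lower, and 7 companion genes were lower. The cause of these shifts was not tested. Libraries share only a number by the labels: same-numbered libraries had correlations of deviations of 0.128, 0.0975 and 0.257, and each correlated best with its own number, which is a hint from the data and not the design. The ratio of Crabp2 to Fabp5, its block, its left-out libraries and its exact permutation test were not run, because Crabp2 had 0 reads in 4 of the 6 libraries and a ratio with 1 read added would rest on the added read. Protein alignments were not run and coding bases were compared instead, a change made after seeing the data. Depth limits Fabp3, Fabp4, Crabp1 and Crabp2, and the vehicle side of Fabp6 and Fabp1.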
